A study of Mus musculus with 3 samples.

Results

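The parathyroid hormone-related protein (PTHrP) and hedgehog axis comprised 10 genes, chosen by symbol for their place in growth plate signalling. The rule used no counts, but the choice was made with earlier results of these data known. All 10 were found among the 44788 symbols of the count table. RNA had been sequenced from primary chondrocytes of C57BL/6 mice, isolated from cartilage of the knee. The cKO group (2 libraries) had the genotype Col2a1-CreERT2;Kdm6bf/f, and the control group (1 library) had the genotype Kdm6bf/f. Both groups therefore carried floxed alleles of Kdm6b, which encodes a histone H3 lysine 27 demethylase. Both received 1 μM 4-hydroxytamoxifen for 48 hours, and serum was at 10% in both. CreERT2 is a recombinase that 4-hydroxytamoxifen activates, and the Col2a1 promoter limits it to cells that use that promoter, chondrocytes above all. The control lacked CreERT2, so the effects of the recombinase itself and of the loss of Kdm6b cannot be told apart. The labels do not state the age of the mice, nor whether the 2 cKO libraries came from separate animals or cultures, though sex-linked counts, given below, set them apart. The edgeR p-values below rest on 1 residual degree of freedom, from these 2 libraries, and on 19.87 prior degrees of freedom drawn from all genes tested. They measure no spread among control libraries.

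PTHrP and Indian hedgehog form the feedback loop that sets the pace of chondrocyte maturation in the growth plate. Indian hedgehog, secreted by prehypertrophic chondrocytes, raises PTHrP production near the joint end of the bone, and PTHrP acts through its receptor PTH1R to hold proliferating chondrocytes back from hypertrophy. Hedgehog ligands bind Patched 1, which otherwise keeps the membrane protein Smoothened inactive, and active Smoothened turns the Gli transcription factors from repressors towards activators. Patched 1, Gli1 and the decoy receptor Hhip are themselves target genes of the pathway in many tissues.

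The libraries were of like depth, with 12489738 to 12636471 counts. For Kdm6b, the targeted gene, the control held 1289 counts and the cKO pair 1049 and 948, and the log2 fold change of -0.39 ± 0.14 (SE) did not pass in edgeR (adjusted p = 0.138). Counts per gene cannot separate reads of floxed exons from reads of the rest of the gene, so this checks the labels only weakly. Each of 13 chondrocyte markers had counts in every library, and Col2a1, given in CPM (counts per 1000000, scaled to TMM-normalised library size), lay between 11984 and 20116. Xist had 10081 counts in cKO replicate 2 against 2 and 1 elsewhere, and Y-linked genes had none in that library. The Y-linked gene Ddx3y had 680 counts in cKO replicate 1 and 732 in the control. These counts mark cKO replicate 2 as female, and cKO replicate 1 and the control as male, so the cKO libraries came from different animals. In sex cKO replicate 1 is the library like the control, so the 2 members that passed are also given from it alone. The members of the axis lie on chromosomes 1, 6, 8, 9, 10, 13 and 16, none of them a sex chromosome.

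Of the 10 members, Pth1r and Boc fell in the cKO cells, none rose, 5 were tested without passing, and 3 had too few counts to be tested. Both receptors for the secreted signals and the Gli2 and Gli3 factors were transcribed at readily countable levels in each library, whereas the ligand genes Ihh and Pthlh had at most 3 reads in any library. A call means an adjusted p under 0.05 in edgeR's quasi-likelihood test, with Benjamini-Hochberg adjustment over the 15529 genes tested. Over all these genes 762 were called, which is 4.91%, with 295 lower (1.9%) and 467 higher (3.01%). Of the members, 7 passed the filter on low counts, and 2 of them were called lower. The same 2 were called lower with RLE size factors, where 1.48% of all genes tested were, and in limma-voom, where 2.32% were. No member was called with library totals only, in DESeq2 or with a prior of 3 degrees of freedom, where the shares of all genes called lower were 0.573%, 0.564% and 0.0258%, nor without a filter on low counts, where the share was 0.0%.

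The 3 annotated starts of Pth1r are shown because Pth1r is the member with the largest called difference and the gene-level counts add its transcripts together. Each sequence is the 250 bases before a start, from RefSeq on GRCm38.p6, written 5′ to 3′ on the strand of the gene. The window of Hhip is added because, of the 8 members with a window, it alone holds a searched motif, given there in capitals.
Pth1r start 1, chr9:110747146-110747395, minus strand: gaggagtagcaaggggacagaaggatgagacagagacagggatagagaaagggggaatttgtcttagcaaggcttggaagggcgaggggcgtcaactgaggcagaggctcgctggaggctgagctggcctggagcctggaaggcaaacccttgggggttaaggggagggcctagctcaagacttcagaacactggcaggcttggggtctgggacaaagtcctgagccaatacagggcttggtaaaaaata
Pth1r start 2, chr9:110743687-110743936, minus strand: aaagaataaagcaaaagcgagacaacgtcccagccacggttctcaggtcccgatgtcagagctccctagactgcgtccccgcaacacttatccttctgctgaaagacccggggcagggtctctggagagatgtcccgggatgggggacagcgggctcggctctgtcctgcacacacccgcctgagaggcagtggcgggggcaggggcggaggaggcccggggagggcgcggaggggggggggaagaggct
Pth1r start 3, chr9:110742611-110742860, minus strand: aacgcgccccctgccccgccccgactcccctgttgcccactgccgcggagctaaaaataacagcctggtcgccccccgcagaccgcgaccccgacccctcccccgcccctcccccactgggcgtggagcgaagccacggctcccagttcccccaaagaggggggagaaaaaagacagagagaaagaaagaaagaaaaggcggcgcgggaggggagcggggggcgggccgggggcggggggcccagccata
Hhip start, chr8:80058009-80058258, minus strand: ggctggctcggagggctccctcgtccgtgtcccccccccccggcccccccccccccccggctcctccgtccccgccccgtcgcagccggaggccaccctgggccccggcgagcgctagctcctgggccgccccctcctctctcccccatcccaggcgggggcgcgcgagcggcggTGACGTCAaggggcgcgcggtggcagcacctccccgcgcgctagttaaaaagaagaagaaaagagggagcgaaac
The Pth1r windows differ in base composition, with 56.0% G and C and 3 CpG dinucleotides at start 1, 65.6% and 16 at start 2, and 70.4% and 22 at start 3, beside a median of 52.4% G and C over 32851 windows of all genes. In total 10 windows matched 8 members, and Gli1 and Boc had no entry. The GLI binding core GACCACCCA, searched on both strands, was in 0 of the 10 windows and in 0.225% of all windows. The cyclic AMP response element TGACGTCA, which reads the same on both strands, was in the Hhip window, ending 68 bases from the start, and in 1.546% of all windows. A match describes the letters only, and none of the counts tells which start a read came from.

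Pthlh, which encodes PTHrP (chromosome 6, 147252101 to 147264183, minus strand, GRCm38), had 1 count in the control, none in cKO replicate 1, and 2 in the other cKO library. All 3 libraries sat at or near 0, and the summed cKO counts stood at a ratio of 0.983 to the control with an exact 95% counting interval of 0.0512 to 58.0. A count of 0 allows up to 3 counts, or 0.241 CPM, in cKO replicate 1. No difference in Pthlh was detectable at this depth.

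Pth1r, the gene of the G protein-coupled receptor for PTHrP and parathyroid hormone, lies on chromosome 9 (110722085 to 110747145, minus strand, GRCm38). The control held 249 counts and the cKO pair 157 and 131, which is 20.1 CPM against 12.6 and 10.2 CPM. Both cKO libraries were below the control, at 62.8% and 51.0% of its level, and the exact 95% counting intervals of those ratios, 0.511 to 0.770 and 0.410 to 0.633, lay below 1. The cKO libraries themselves differed by less than their counting error, with a ratio of 0.812 (95% interval 0.639 to 1.03).

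Pth1r fell to 11.4 ± 1.7 CPM (SD, n = 2), by -0.81 ± 0.22 (SE) on the log2 scale (95% interval -1.27 to -0.36; adjusted p = 0.0327 in edgeR). From cKO replicate 1 alone the value was -0.67, with no test. In DESeq2 it did not pass (adjusted p = 0.650), and over the 6 alternative tests the adjusted p ran from 0.0198 to 0.650, with 2 of the 6 under 0.05. Of 13 chondrocyte markers, 11 were called lower in edgeR, beside 1.9% of all genes tested, and 8 in DESeq2, beside 0.564%. The markers had a median log2 fold change of -1.18, beside 0.00 for all genes tested. Their summed level was 30485 CPM in the control against 18215 and 16816 CPM in the cKO pair. Their part in the Pth1r result was not tested, and in bulk RNA fewer cells of a type and less RNA per cell cannot be told apart. Myl3 shares 95 exonic bases with Pth1r on the opposite strand and had 0 counts in each library.

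Ihh, the gene of the ligand Indian hedgehog (chromosome 1, 74945315 to 74951672, minus strand), had 2 counts in the control, 3 in cKO replicate 1 and none in the other cKO library. The groups overlap, and the ratio of summed cKO counts to the control was 0.737 with a counting interval of 0.0844 to 8.82. The other hedgehog ligand genes were as sparse. Shh had 0 counts in each library, and Dhh had 2 in the control against 5 and 4 in the cKO pair. Each hedgehog ligand gene thus had at most 5 reads in a library of either genotype.

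Ptch1, which encodes the hedgehog receptor Patched 1 (chromosome 13, 63508328 to 63573598, minus strand), had 689 counts in the control against 678 and 730 in the cKO pair, which is 55.5 CPM against 54.4 and 57.0 CPM. The control lay between the cKO libraries. The log2 fold change was 0.01 ± 0.15 (SE), with a 95% interval of -0.30 to 0.31, or 0.811-fold to 1.24-fold.

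Smo encodes Smoothened, the transducer that Patched 1 restrains (chromosome 6, 29735503 to 29761365, plus strand). Its counts were 3279 in the control against 3055 and 3030 in the cKO pair, which is 264 CPM against 245 and 237 CPM. Both cKO libraries lay slightly under the control, at 92.8% and 89.6% of it. The log2 fold change of -0.13 ± 0.13 (SE; 95% interval -0.41 to 0.15) did not pass in edgeR (adjusted p = 0.718).

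Boc encodes a hedgehog-binding co-receptor of the immunoglobulin superfamily that helps present ligand to Patched 1 (chromosome 16, 44485049 to 44558897, minus strand). The control held 1561 counts and the cKO pair 1169 and 999, which is 126 CPM against 93.9 and 78.1 CPM. Both cKO libraries were below the control, at 74.6% and 62.0% of it, but they also differed from each other beyond counting error, with a ratio of 0.832 (95% interval 0.763 to 0.906). Boc fell to 86.0 ± 11.2 CPM (SD, n = 2), by -0.55 ± 0.14 (SE) on the log2 scale (95% interval -0.85 to -0.25; adjusted p = 0.0255 in edgeR). From cKO replicate 1 alone the value was -0.42, with no test. In DESeq2 it did not pass (adjusted p = 0.334), and over the 6 alternative tests the adjusted p ran from 0.0225 to 0.560, with 2 of the 6 under 0.05.

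The other co-receptor genes, Cdon and Gas1, were looked at after the value of Boc was known. Cdon, the closest relative of Boc, lay at 492 CPM in the control against 412 and 350 CPM in the cKO pair. Gas1, a membrane-anchored co-receptor, lay at 422 CPM in the control against 354 and 316 CPM. For both genes each cKO library lay under the control, as it did for Boc and for 37.4% of all genes tested. In the list of reception and signal transduction that holds both genes, 12 tested genes had a negative log2 fold change and 13 a positive value. The log2 fold changes were -0.37 ± 0.14 for Cdon and -0.33 ± 0.14 for Gas1 (SE), and neither passed in edgeR (adjusted p = 0.185 and 0.233) or under any of the 6 alternative tests, where the lowest adjusted p was 0.172 for Cdon and 0.232 for Gas1. Whether Boc differed from its partners was not tested.

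**Figure D1:**
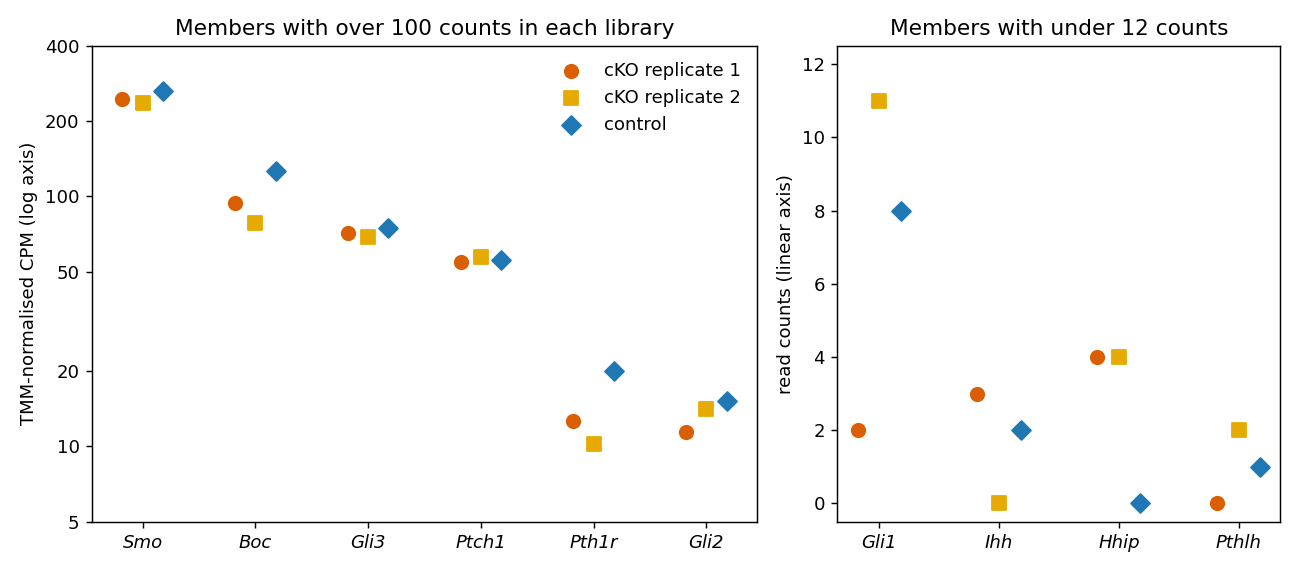
Left, TMM-normalised CPM on a log axis of the 6 members with over 100 counts in each library. Right, raw read counts of the other 4 on a linear axis. Each point is 1 library. Pth1r and Boc show the control apart above both cKO points, Ptch1 shows the control between them, and no member on the right exceeds 11 counts.

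The Gli genes encode the zinc finger transcription factors at the end of the pathway. Gli3, the main source of the pathway's repressor form (chromosome 13, 15463235 to 15730026, plus strand), had 930 counts in the control against 886 and 882 in the cKO pair, which is 75.0 CPM against 71.1 and 68.9 CPM. Both cKO libraries lay just under the control, and the log2 fold change of -0.10 ± 0.14 (SE; 95% interval -0.39 to 0.20) did not pass in edgeR (adjusted p = 0.824). The gene Gm6556 shares 188 exonic bases with Gli3 on the opposite strand and had 21 to 24 counts.

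Gli2, the main activator of the family (chromosome 1, 118834132 to 119053619, minus strand), had 189 counts in the control against 142 and 181 in the cKO pair, which is 15.2 CPM against 11.4 and 14.1 CPM. The lower value belonged to cKO replicate 1, and cKO replicate 2 was at 92.8% of the control. The log2 fold change of -0.25 ± 0.23 (SE; 95% interval -0.73 to 0.22) did not pass in edgeR (adjusted p = 0.673). The step between the cKO libraries was a ratio of 1.24 (counting interval 0.990 to 1.56), and the ratio of cKO replicate 1 to the control was 0.748 (0.598 to 0.935).

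Gli1, which is transcribed where the pathway is active and acts as an activator (chromosome 10, 127329882 to 127341974, minus strand), had 8 counts in the control, 2 in cKO replicate 1 and 11 in the other cKO library. The cKO libraries lay on either side of the control, and the ratio between them was 5.35 with a counting interval of 1.17 to 49.7. Its log2 fold change of -0.32 ± 0.85 (SE; 95% interval -2.09 to 1.45) spans 0.234-fold to 2.74-fold, so no difference in Gli1 was detectable at this depth. Without cKO replicate 1 the value was 0.41, and without cKO replicate 2 it was -2.01. Exons of Gli1 overlap those of Arhgap9 by 62 bases on the opposite strand, and Arhgap9 had at most 1 count.

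Hhip encodes a membrane protein that binds and sequesters hedgehog ligands (chromosome 8, 79965851 to 80058006, minus strand). It had 4 counts in each cKO library and 0 in the control. Set against a floor of 3 counts in the control library, the summed cKO counts stood at a ratio of 1.31. That ratio leaves out the counting error of the cKO reads, and the exact 95% counting interval starts at 0.839. The groups do not overlap, yet the 8 reads in all do not separate them beyond counting error.

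**Figure D2:**
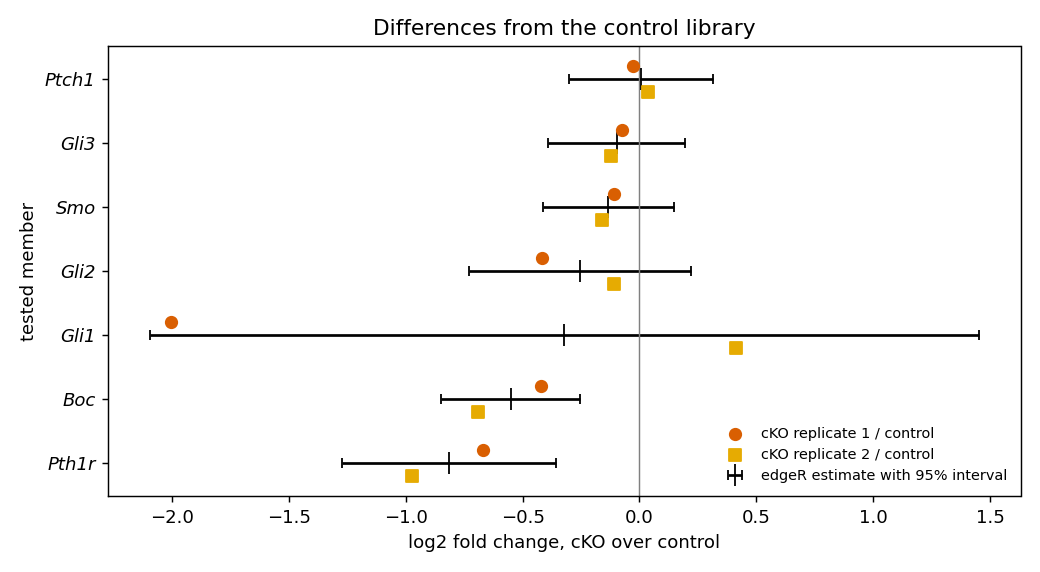
Log2 fold change of cKO over control for the 7 tested members. Black ticks and bars give the edgeR estimate and its 95% interval, and coloured points give each cKO library against the control. The bars of Pth1r and Boc lie below 0, those of the other 5 cross it, and the bar of Gli1, with 21 counts in all, runs from -2.09 to 1.45.

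Both cKO libraries lay below the control for 5 of the 7 tested members (Pth1r, Boc, Smo, Gli2 and Gli3) and on either side of it for Ptch1 and Gli1. Over all 15529 genes tested, both cKO libraries lay below the single control in 37.4% and above it in 36.6%, so such an order is common. The median log2 fold change of the 7 tested members was -0.25, beside 0.00 for all genes tested. This median leaves out the 3 members that were not tested.

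Levels of different genes were set side by side per length, as TPM (transcripts per 1000000), from the exonic length of each gene in GENCODE M21. In this scale Smo was highest, at 165 to 184 TPM, followed by Boc at 68.5 to 111 TPM and Gli3 at 28.1 to 30.6 TPM, and these ranges did not overlap. Pth1r (13.7 to 26.8 TPM) and Ptch1 (15.3 to 15.7 TPM) came next and their ranges overlapped: Pth1r was the higher in cKO replicate 1 and in the control, and Ptch1 in cKO replicate 2. Gli2 followed at 6.77 to 8.68 TPM.

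Gli1, Pthlh, Ihh and Hhip were each at 0.672 TPM or less in every library, and each overlapped with its neighbour in the order. Gli3 exceeded Gli2 by 4.47-fold and 3.49-fold in the cKO libraries and 3.52-fold in the control, so the order of the 3 Gli genes, Gli3 above Gli2 above Gli1, was the same in all 3 libraries. The TPM of Smo was 11.4 and 10.5 times that of Ptch1 in the cKO libraries and 12.01 times in the control. The exonic length of Ptch1, 14185 bases, sums the exons of all its annotated transcripts, and a shorter expressed form would have a higher TPM than the one given.

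**Figure D3:**
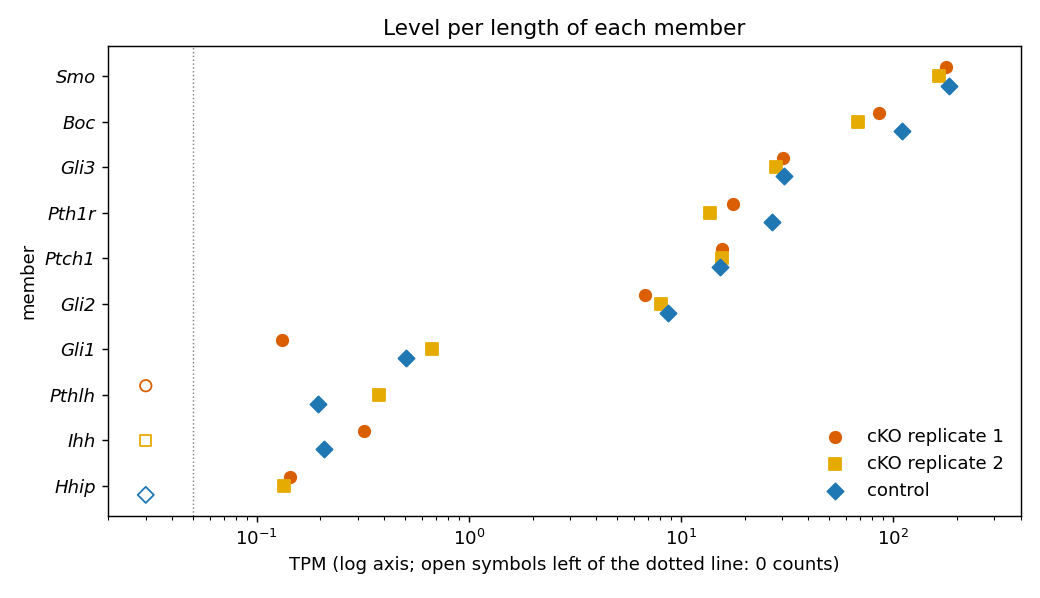
TPM of each member on a log axis in the 3 libraries, ordered by the mean. Open symbols left of the dotted line mark libraries with 0 counts. Smo stands at 165 to 184 TPM, while Gli1, Pthlh, Ihh and Hhip lie under 1 TPM in each library.

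The other genes of the hedgehog pathway were described from lists set by textbook role. Of 64 further hedgehog genes, 58 were tested, and 2 rose, 0 fell and 56 did not pass. An unadjusted p under 0.05 in edgeR was reached by 6 of the 58 (10.3%), below the 15.7% of all genes tested, and limma-voom called 1 lower (Scube1) and DESeq2 0. The median log2 fold change was -0.05, beside 0.00 for all genes tested. Called genes made up 1.9% (lower) and 3.01% (higher) of all genes tested.

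By role, ligand production and release had 0 of 5 tested genes called in edgeR and 1 at an unadjusted p under 0.05, which was that of Scube1, a secreted protein of a family that helps release hedgehog ligands. Scube1 lay at 18.7 CPM in the control against 13.3 and 7.03 CPM in the cKO pair, and differed by -0.88 ± 0.27 (SE) on the log2 scale (edgeR adjusted p = 0.0722, and from 0.0238 to 0.822 over the 6 alternative tests). The value was -1.41 without cKO replicate 1 and -0.49 without cKO replicate 2. Primary cilium transport, on which vertebrate hedgehog signalling depends, had 0 of 17 called in edgeR and 1 at an unadjusted p under 0.05. This was Dync2h1, the motor that carries cargo back from the cilium tip, at -0.41 ± 0.17 (SE) on the log2 scale (edgeR adjusted p = 0.235).

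In reception and signal transduction 1 of 25 tested genes rose and 0 fell, beside 3.01% called higher and 1.9% called lower of all genes tested. That gene was Arrb1, which encodes beta-arrestin 1, a regulator of G protein-coupled receptors that also takes part in Smoothened trafficking. It lay at 36.3 CPM in the control against 53.8 and 52.3 CPM in the cKO pair. Both cKO libraries were thus above the control, as they were for 36.6% of all genes tested. Arrb1 rose by 0.55 ± 0.16 (SE) on the log2 scale (edgeR adjusted p = 0.0443). Over the 6 alternative tests the adjusted p ran from 0.0396 to 0.560, with 1 of the 6 under 0.05.

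Of 11 tested hedgehog target genes 1 rose, beside 3.01% called higher of all genes tested. That gene was Ccnd1, which encodes cyclin D1 and responds to many signals besides hedgehog. It lay at 366 CPM in the control against 714 and 753 CPM in the cKO pair, and rose by 1.00 ± 0.15 (SE) on the log2 scale (edgeR adjusted p = 0.000156). Over the 6 alternative tests the adjusted p ran from 2.52e-07 to 0.365, with 4 of the 6 under 0.05. The remaining 10 did not pass, and the list median was 0.09. Among the genes most closely tied to the pathway, the member Ptch1 did not pass, and Gli1 and Hhip had few counts, as given above.

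Downstream of the PTHrP receptor, 44 further genes were listed, of which 40 were tested, and 1 rose, 0 fell and 39 did not pass, beside the 3.01% called higher over all genes. The gene that rose was again Arrb1, which stands in both lists. An unadjusted p under 0.05 in edgeR was reached by 6 of the 40 (15.0%), close to the 15.7% of all genes tested, and in DESeq2 and limma-voom 0 were called lower. The median log2 fold change was 0.06. Gnas, which encodes the stimulatory G protein through which PTH1R raises cyclic AMP, was abundant, at 1675 CPM in the control against 1488 and 1539 CPM in the cKO pair, and did not pass (adjusted p = 0.770 in edgeR).

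Among 10 factors that act below PTHrP in growth plate chondrocytes 0 were called, and 1 had an unadjusted p under 0.05 in edgeR, a share (10.0%) below that of all genes tested. This was Hdac4, a class IIa histone deacetylase that restrains hypertrophy, at 17.97 CPM in the control against 24.4 and 25.5 CPM in the cKO pair (log2 fold change 0.47 ± 0.19 SE, adjusted p = 0.208 in edgeR, and 0.208 to 1.00 over the 6 alternative tests). The genes of the hormones Pth and Pth2 had 0 counts in each library, and the related receptor gene Pth2r had 4 to 6.

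**Figure D4:**
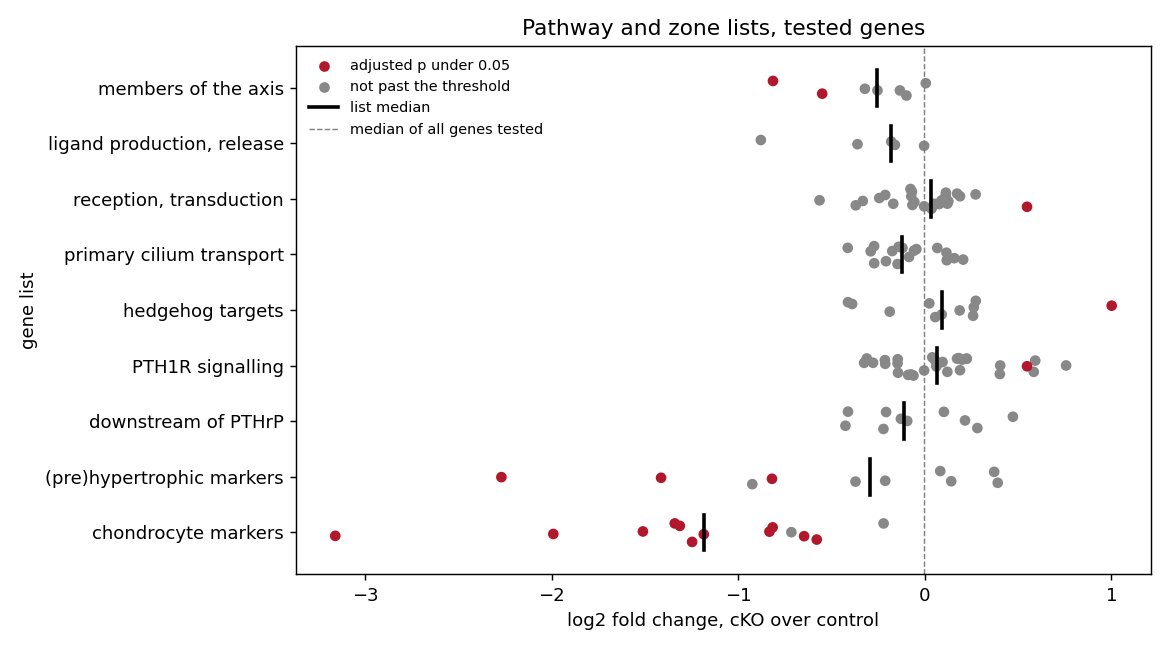
Log2 fold change of cKO over control for each tested gene of the axis, of the pathway lists and of the zone and chondrocyte markers. Each point is a gene, red where the adjusted p in edgeR was under 0.05, and black bars are list medians. The pathway medians lie between -0.18 and 0.09, and that of the chondrocyte markers lies at -1.18.

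The zone from which Indian hedgehog comes in the growth plate was followed with 10 other markers of prehypertrophic and hypertrophic chondrocytes. Of these 3 fell, 0 rose and 7 did not pass in edgeR, beside 1.9% called lower and 3.01% called higher of all genes tested. Their median was -0.29. Those that fell were Smpd3, Panx3 and Ibsp, named after their values were seen, and DESeq2 called 2 of the 3 (Smpd3 and Panx3). Of the 10 markers, 6 had a negative log2 fold change and 4 a positive one. The 4 were Col10a1, Spp1, Vegfa and Phospho1, none of which passed. Col10a1 lay at 65.0 CPM in the control against 70.4 and 67.2 CPM in the cKO pair. The sum of the 10 markers was 1934 CPM in the control against 2368 and 2418 CPM in the cKO pair, a gap that came from the abundant Spp1, since the other 9 summed to 479.9 CPM against 493 and 480.1 CPM. Panx3 encodes a channel protein, Ibsp a mineral-binding matrix protein and Smpd3 a sphingomyelinase. Markers of other cell types were given as summed levels. The 9 fibroblast and synovium markers summed to 521 CPM in the control against 780 and 650 CPM in the cKO pair, with 3 of 7 tested called higher in edgeR (Prg4, Thy1 and Htra4), beside 3.01% of all genes. DESeq2 called 0 of the 3 and limma-voom 2 (Prg4 and Thy1). Thy1 lay at 11.2 CPM in the control against 50.02 and 20.2 CPM, so its rise was larger in cKO replicate 1, and Dpt, which did not pass, lay at 2.82 CPM in the control against 1.36 and 0.938 CPM. The 7 mural markers summed to 1421 CPM in the control against 1499 and 1623 CPM, with 0 of 6 called in edgeR and 0 of 6 at an unadjusted p under 0.05. The 10 leukocyte markers summed to 7.82 CPM in the control against 12.6 and 12.97 CPM, with Emr1, Itgam, Tyrobp and Cd3e among those at 0 in each library, and 0 of 4 tested called in edgeR, where 2 had an unadjusted p under 0.05. The 6 endothelium markers summed to 0.806 CPM in the control against 3.21 and 2.50 CPM in the cKO pair. The 8 osteoblast markers summed to 3.63 CPM in the control against 6.58 and 6.02 CPM. The 7 skeletal muscle markers summed to 5.56 CPM in the control against 6.18 and 6.02 CPM, and the 5 adipocyte markers to 26.0 CPM against 32.2 and 21.8 CPM. In each of these lists 0 of 2 tested genes were called in edgeR. The part of these markers in the values of Pth1r and Boc was not tested.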

How the data were processed

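The authors deposited 1 table of read counts per gene symbol, unnormalised whole numbers, with 1 column for each of 3 libraries from an Ion Proton protocol after ribosomal RNA depletion, per the labels' protocols. The submitters' processing notes list GRCm38 and GRCh37 without a role. Aligner, counter, annotation and strandedness were not given in the sources used here, so reads of overlapping genes may be shared.

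Counts were tested with edgeR 4.0.16 in R 4.3.3 (filterByExpr, TMM, quasi-likelihood F test, Benjamini-Hochberg over 15529 genes, threshold 0.05). The fit had 1 residual and 19.87 prior degrees of freedom, and the control, with no replicate, was taken to vary as the cKO libraries do. A run on simulated counts cannot test this assumption, because every simulated library was drawn with the same dispersion. SE was the absolute log2 fold change over the root of F. Alternatives were RLE factors, library totals, no filter, DESeq2 1.42.0, limma-voom (limma 3.58.1), a prior of 3 and leaving out a cKO library. Ratio intervals are exact binomial (Clopper-Pearson, 95%) on raw counts, then rescaled by TMM-normalised library size. They and the floor of 3 counts cover counting error only. TPM used the 30936 symbols matching 1 GENCODE M21 gene. All members were named; of each pathway list, the genes that passed or else the one with the smallest p; Cdon, Gas1, Gnas, Spp1, Dpt, the called zone and fibroblast markers, and genes at or near 0 were added after their values were seen. Members and lists were chosen with earlier results of these data known.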

Additional observations from a re-analysis of the deposited data

How the results depend on the processing

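The calls of Pth1r and Boc, 2 members lower in the reported fit, were 2 with RLE size factors and in limma-voom, and 0 with library totals only, with no filter on low counts, in DESeq2 and with a prior of 3 degrees of freedom. Under each of these 6 tests 2 or 3 members had an unadjusted p under 0.05, 0 were called higher, and Pth1r and Boc stayed negative. Genes called in all, 762 as reported, were 316 with library totals only, 310 in DESeq2, 87 with a prior of 3 and 0 with no filter, where 1829 had an unadjusted p under 0.05. Of the other hedgehog genes, 2 were called higher as reported, 1 with RLE size factors, library totals only and DESeq2, and 0 with no filter and with a prior of 3, while limma-voom called 1 lower. The 1 higher gene of PTH1R signalling was called in limma-voom as well, and the number was 0 with the other 5 tests. The cause of these losses was not tested. Leaving out a cKO library leaves no residual degree of freedom, so those values have no test. The log2 fold change of Ptch1 was -0.029 without cKO replicate 2 and 0.038 without cKO replicate 1, and that of Gli1 was -2.01 and 0.41, so each changed sign with the library left out. Pth1r and Boc stayed below 0. No paired analysis was possible because the control is a single library and carries no replicate number in the labels. Depth limits Gli1, Pthlh, Ihh and Hhip, for which only changes of many-fold could be seen.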
